A study of Homo sapiens with 27 samples.

Results

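The 10 genes described here belong to the TGF-beta and BMP pathways: the ligands TGFB1, TGFB2 and BMP4, the BMP antagonist GREM1, the receptor TGFBR2, and the responders SMAD7, KLF10, ID1, ID3 and TBX2. They and the pathway lists used below were chosen by name with earlier results of these data known, so counts of called genes are a description. Each of the 10 was 1 of the 21487 gene rows of a count table made by polyA RNA sequencing of Panc1 cells. Panc1 is an established line of human pancreatic ductal adenocarcinoma. All 10 passed the filter on low counts and were among 13943 tested genes, BMP4 with only 0 to 18 counts a library. The study compared ARNT knockout clone B, ARNT knockout clone A and parental Panc1 cells, with 3 libraries in each of 9 groups. Each knockout line is 1 clone made with CRISPR-Cas9, so a difference of a clone from parental cells cannot be told apart from a difference between clonal lines. Cells of each genotype spent 48 hours in hypoxia (1% O2) with TIFM, in hypoxia (1% O2) with regular medium, or in normoxia (20% O2) with regular medium (DMEM with 10% FBS and 1% P/S). TIFM is a pancreatic tumor interstitial fluid medium. No normoxic cells received it, so its effect is read within hypoxia, and all compared groups shared the Panc1 background.

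TGF-beta ligands bind the type II receptor TGFBR2, which activates a type I receptor, and the signal passes through SMAD2 and SMAD3 with SMAD4 to the nucleus. BMP ligands use related receptors and SMAD1, SMAD5 and SMAD9, and ID1 and ID3 are classic genes that they induce. SMAD7 is an inhibitory SMAD induced by the pathway, and KLF10 is a zinc-finger repressor first described as an early TGF-beta response gene. In pancreatic cancer the pathway is known for loss of SMAD4 in many tumors and for its part in invasion and stroma formation. ARNT is the partner subunit of the hypoxia-inducible factors and of the aryl hydrocarbon receptor. These dimers bind DNA around the letters ACGTG or GCGTG.

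TGFB1, ID1 and ID3 are the members that passed the test for hypoxia in parental cells, so their promoters are printed here. RefSeq promoter windows (GRCh38.p14, 250 bases before to 50 bases after the start) were matched by symbol for 8 of the 10 members, in 14 windows. KLF10 and TBX2 have no entry. In each sequence, written 5′ to 3′ on the gene's strand, capitals mark ACGTG or GCGTG, which appear as CACGT or CACGC where the match lies on the other strand.

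TGFB1 promoter, chr19:41353873-41354172, minus strand: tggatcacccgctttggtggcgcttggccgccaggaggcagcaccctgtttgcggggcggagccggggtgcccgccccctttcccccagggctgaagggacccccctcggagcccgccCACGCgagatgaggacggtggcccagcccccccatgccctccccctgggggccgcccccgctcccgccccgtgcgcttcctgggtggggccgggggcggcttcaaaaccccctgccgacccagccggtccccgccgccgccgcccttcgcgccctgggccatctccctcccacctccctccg
ID1 promoter, chr20:31605039-31605338, plus strand: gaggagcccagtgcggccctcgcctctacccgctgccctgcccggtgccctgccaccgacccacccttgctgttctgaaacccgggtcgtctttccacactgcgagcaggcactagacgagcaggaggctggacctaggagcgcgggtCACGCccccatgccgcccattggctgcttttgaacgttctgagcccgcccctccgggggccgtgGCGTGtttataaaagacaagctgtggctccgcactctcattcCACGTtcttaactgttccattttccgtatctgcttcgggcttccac
ID3 promoter, chr1:23559452-23559751, minus strand: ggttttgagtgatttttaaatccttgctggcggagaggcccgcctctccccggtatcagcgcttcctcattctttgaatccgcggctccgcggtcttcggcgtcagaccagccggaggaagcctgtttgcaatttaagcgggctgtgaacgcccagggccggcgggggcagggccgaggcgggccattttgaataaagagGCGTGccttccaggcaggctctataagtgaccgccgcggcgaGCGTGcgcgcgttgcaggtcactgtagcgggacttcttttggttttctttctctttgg

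The TGFB1 window held 1 match, GCGTG on the other strand 132 bases before the start. In the ID1 window GCGTG lay 38 bases before the start, again on the other strand 102 bases before it, and ACGTG lay on the other strand 4 bases after it. In the ID3 window GCGTG lay 50 and 8 bases before the start. Such short letters are common: ACGTG was in 21.4%, GCGTG in 36.5% and either in 48.4% of 35116 promoter windows of the same length, on both strands. The window of TGFB2, which did not pass the test for hypoxia in parental cells, held ACGTG at 3 positions, of which the 2 at 48 and 49 bases before the start overlap. A match is a description of the letters and not a bound site.

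Libraries held 26057022 to 38341713 counts, and levels are given as CPM, each count over its library's total after TMM scaling, brought to a common total. Whether the 3 libraries of a group came from separate cultures is not stated, and the p-values cover only the spread among libraries within groups. All 27 libraries were in 1 fit, which gave each gene 1 estimate of that spread for all 9 groups. A p-value is therefore not set by the spread of the compared groups alone. Transcripts of ARNT were found in every group (means of 48.8 to 75.5 CPM), which does not check the knockout. The 6 epithelial markers KRT7, KRT8, KRT18, KRT19, EPCAM and CDH1 summed to 785 to 8729.6 CPM a library. The 6 fibroblast markers summed to 11.4 to 34.5 CPM, most of it COL3A1 and THY1, and the 4 endothelial markers to 0.0565 to 2.19 CPM. The 4 leukocyte markers summed to 76.9 to 299 CPM, nearly all of it CD68 (76.6 to 296 CPM), a lysosomal protein also made outside leukocytes, while PTPRC and CD3E reached at most 0.839 and 0.148 CPM. The common biological coefficient of variation was 14.1%; by condition it was 22.1% in hypoxic TIFM, 9.63% in hypoxia and 6.97% in normoxia, and it was highest in clone A in hypoxic TIFM (29.3%).

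Differences are log2 ratios from edgeR's quasi-likelihood fit with their SE. A gene was called where its p, adjusted by Benjamini-Hochberg across the 13943 genes, was under 0.05. The background beside a count of members is the share of all tested genes called in that comparison, with the share called in the same direction where all called members moved one way. Per kilobase of exon, parental cells in normoxia held ID1 at 68.6 CPM per kb, KLF10 at 31.8, TGFB2 at 20.1, TGFBR2 at 16.8 and ID3 at 12.8 CPM per kb. SMAD7 (5.31 CPM per kb), TGFB1 (5.11), TBX2 (2.89), GREM1 (0.379) and BMP4 (0.0800) were lower. In these bulk libraries, fewer cells of a type and less RNA per cell cannot be told apart.

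**Figure D1:**
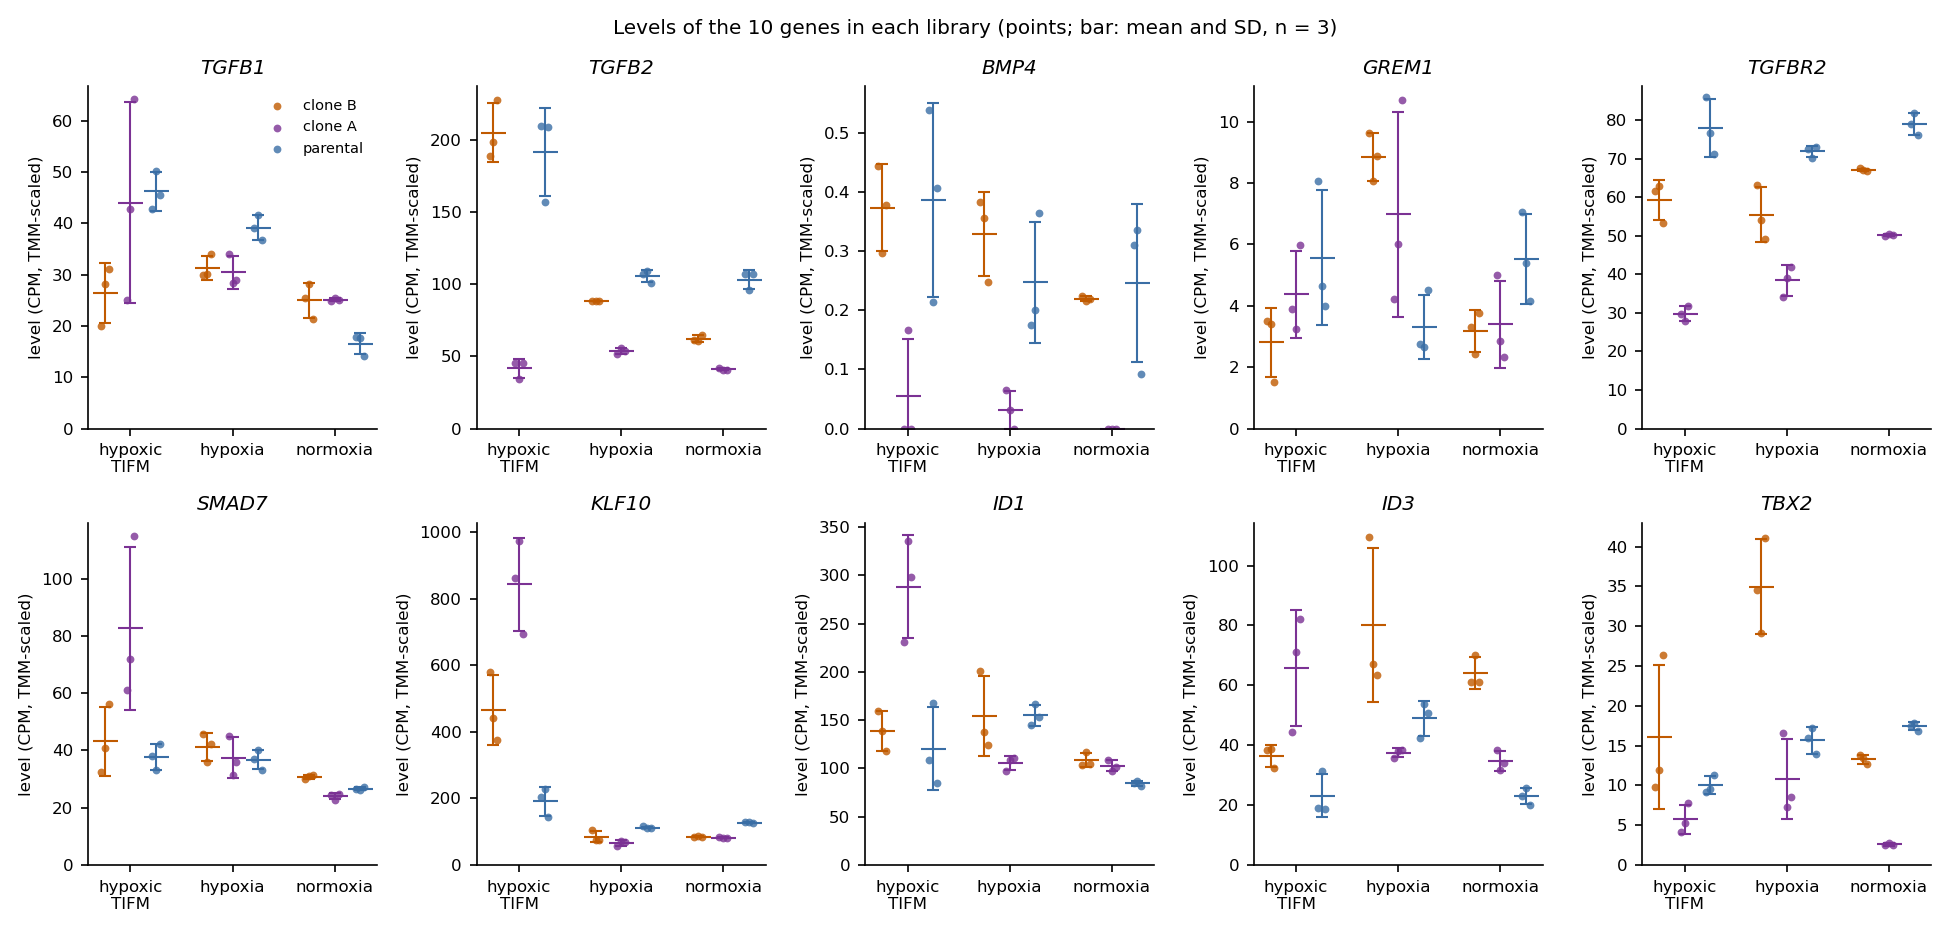
Level of each of the 10 genes (y axis, CPM scaled with TMM factors, from 0) in hypoxic TIFM, hypoxia and normoxia (x axis) for clone B, clone A and parental cells. Points are single libraries, and bars give the mean and SD of 3; KLF10 reaches 695 to 972 CPM in clone A in hypoxic TIFM, and BMP4 is at 0 in all 3 clone A libraries in normoxia.

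Hypoxia raised TBX2, GREM1 and TGFB2 in both clones, and TGFB1, ID1 and ID3 in parental cells. In clone B hypoxia 3 of 10 genes were called, all higher (background 9.30%, 4.46% higher), and in clone A hypoxia 5 of 10 (4 higher and 1 lower; background 22.2%). The count in clone A hypoxia was 3 without clone A hypoxia replicate 1 or clone A normoxia replicate 3, and 2 without clone A normoxia replicate 2. In parental hypoxia 3 of 10 were called, all higher, a share close to that of all tested genes (background 30.2%, 15.4% higher). None of TGFB1, ID1 and ID3 was called in a clone in the fit of all libraries. TGFB1 passed in both clones with only the libraries compared, and ID1 passed in clone B with DESeq2. The median log2 difference of the 10 genes was 0.46 in clone B, 0.33 in clone A and 0.01 in parental cells, against -0.01, -0.01 and 0.00 over all tested genes. Without BMP4, which had 3 counts in hypoxia and 0 in normoxia in clone A, the medians of the other 9 were 0.42, 0.27 and 0.04 in the same order.

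TGFB1 (chromosome 19, 41301587 to 41353911, minus strand, GRCh38) encodes a TGF-beta ligand. In clone B the libraries held 30.0, 30.1 and 34.1 CPM in hypoxia, against 25.5, 28.2 and 21.4 CPM in normoxia. Clone A libraries held 34.1, 28.3 and 28.9 CPM in hypoxia, against 24.9, 25.5 and 25.0 CPM in normoxia. The ranges did not overlap in either clone, but the differences were small. In the fit of all libraries they did not pass, at 0.33 ± 0.20 in clone B (adjusted p = 0.344) and 0.27 ± 0.20 in clone A (adjusted p = 0.361). With only the libraries compared they passed in clone B (adjusted p = 0.0136) and clone A (0.0245). Parental libraries held 39.2, 41.7 and 36.7 CPM in hypoxia, against 17.8, 17.7 and 14.2 CPM in normoxia. Every hypoxic library was above every normoxic one, and the log2 difference was 1.24 ± 0.21 (2.37-fold, adjusted p = 6.12e-05). About 6.64% of the TGFB1 exon length is shared with HNRNPUL1 on the opposite strand, and the strand setting of the counting is not stated.

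The clones' hypoxia responses were then compared with the parental response, which both comparisons share. For TGFB1 the response was lower by a log2 difference of -0.92 ± 0.29 in clone B (adjusted p = 0.0716, but 0.0449 with DESeq2 and 0.000156 with only the libraries compared) and -0.97 ± 0.29 in clone A (adjusted p = 0.0443, but 0.0532 with DESeq2 size factors). That clone A difference did not pass without any 1 of 11 of the 12 libraries, all but clone A hypoxia replicate 1 (adjusted p up to 0.125). In normoxia TGFB1 was already higher in both clones than in parental cells, by 0.60 ± 0.21 in clone B (adjusted p = 0.0326) and 0.60 ± 0.21 in clone A (adjusted p = 0.0272). Neither normoxia call held for every library left out: clone B's did not hold with 1 of 5 of the 6 libraries left out, all but clone B normoxia replicate 3 (adjusted p up to 0.145), and clone A's without any clone A normoxia library or parental normoxia replicate 3 (up to 0.124). In hypoxia TGFB1 did not pass against parental cells in clone B (-0.32 ± 0.20, adjusted p = 0.236) or clone A (-0.37 ± 0.20, adjusted p = 0.158) in the fit of all libraries. Both clones' groups were apart from the parental one there, and both passed with only the libraries compared (adjusted p = 0.00376 in clone B and 0.00471 in clone A).

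ID1 (chromosome 20, 31605283 to 31606515, plus strand) and ID3 (chromosome 1, 23557918 to 23559794, minus strand) encode helix-loop-helix proteins without a DNA-binding region, which hold back differentiation factors. ID1 in clone B held 201, 138 and 124 CPM in hypoxia, against 104, 117 and 105 CPM in normoxia (0.51 ± 0.18, adjusted p = 0.0787, but 0.0400 with DESeq2). Clone A libraries held 96.9, 109 and 111 CPM of ID1 in hypoxia, against 109, 97.4 and 102 CPM in normoxia (0.04 ± 0.18, adjusted p = 0.907). In parental cells ID1 stood at 145, 167 and 153 CPM in hypoxia, against 84.9, 86.8 and 82.2 CPM in normoxia (log2 0.87 ± 0.18, adjusted p = 0.000807). The groups were apart in parental cells and in clone B, where replicate 1 of hypoxia stood high, and overlapped in clone A. Against the parental response, ID1 differed by -0.36 ± 0.26 in clone B (adjusted p = 0.561) and -0.83 ± 0.26 in clone A (adjusted p = 0.0549). Neither passed in the fit of all libraries, but the clone A difference passed with DESeq2 (adjusted p = 0.0287), with the replicate block (0.0439) and with only the libraries compared (2.19e-05).

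ID3 in clone B held 109.7, 67.2 and 63.3 CPM in hypoxia, against 61.1, 70.2 and 61.1 CPM in normoxia (0.32 ± 0.20, adjusted p = 0.353). In clone A it held 35.8, 38.2 and 38.5 CPM in hypoxia, against 38.3, 31.8 and 34.0 CPM in normoxia (0.11 ± 0.21, adjusted p = 0.734). In parental cells ID3 stood at 42.4, 53.7 and 50.9 CPM in hypoxia, against 23.2, 25.6 and 20.2 CPM in normoxia (1.09 ± 0.21, adjusted p = 0.000272). Each clone's groups overlapped, and the parental groups were apart. The ID3 response differed from the parental one by -0.77 ± 0.29 in clone B (adjusted p = 0.144, and 0.0236 without clone B hypoxia replicate 1) and -0.98 ± 0.29 in clone A (adjusted p = 0.0433). In clone A the difference did not pass with 1 of 10 of the 12 libraries left out, all but parental hypoxia replicate 1 and parental normoxia replicate 2 (adjusted p up to 0.119). ID3 stood higher in the clones in normoxia, by 1.48 ± 0.21 in clone B (adjusted p = 4.14e-06) and 0.59 ± 0.21 in clone A (adjusted p = 0.0303). The clone A value lost its call without clone A normoxia replicate 1 or 3 or without parental normoxia replicate 1 or 3 (adjusted p up to 0.124).

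**Figure D2:**
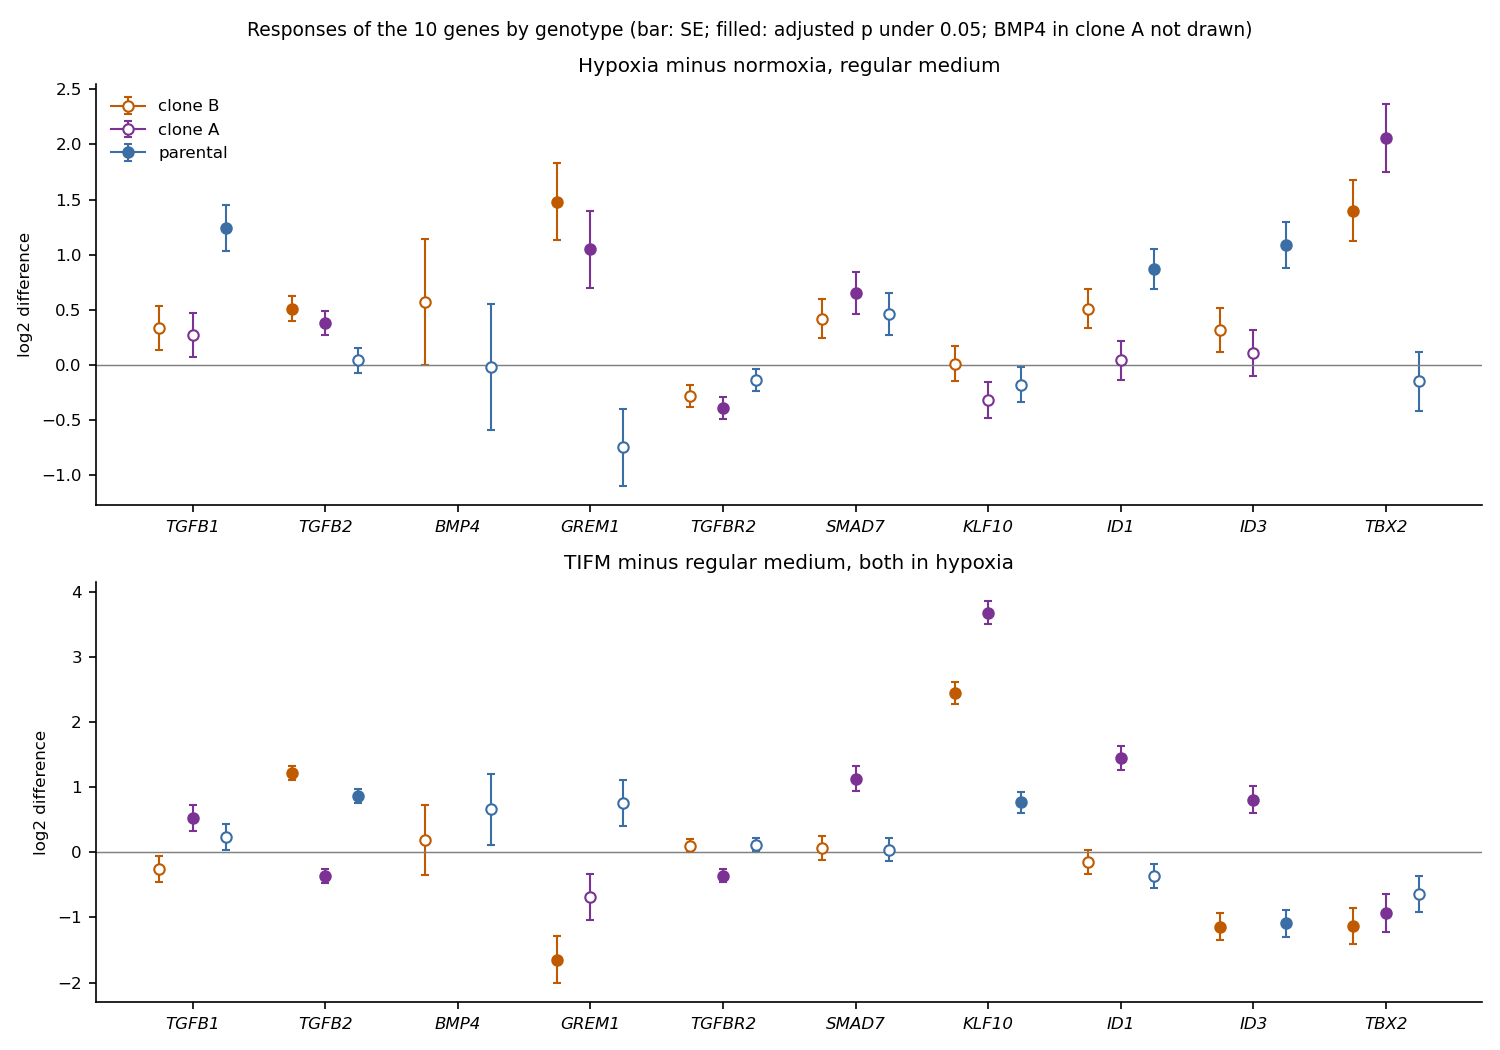
Log2 difference (y axis) of hypoxia minus normoxia (upper panel) and of TIFM minus regular medium, both in hypoxia (lower panel), for each gene (x axis) in clone B, clone A and parental cells. Bars are the SE of the edgeR fit, filled points passed an adjusted p under 0.05, and BMP4 in clone A is not drawn because its groups held 0 to 4 counts; in the upper panel TGFB1, ID1 and ID3 are filled in parental cells and TBX2 and GREM1 in the clones.

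TBX2 (chromosome 17, 61399896 to 61409466, plus strand) encodes a T-box repressor that acts downstream of BMP signals in the embryonic mouse heart. In clone B it held 34.6, 29.2 and 41.1 CPM in hypoxia, against 13.8, 13.4 and 12.7 CPM in normoxia (1.40 ± 0.28, adjusted p = 0.00226). Clone A libraries held 16.6, 7.29 and 8.57 CPM in hypoxia, against 2.54, 2.76 and 2.46 CPM in normoxia (2.06 ± 0.31, adjusted p = 6.99e-05). Parental libraries held 15.9, 17.2 and 13.9 CPM in hypoxia, against 17.5, 17.9 and 16.9 CPM in normoxia (-0.15 ± 0.27, adjusted p = 0.709). Each clone's groups were apart and the parental groups overlapped. The rise in clone A began far below the other lines: against parental cells in normoxia TBX2 was lower by a log2 difference of -2.75 ± 0.31 in clone A (adjusted p = 9.11e-08), while clone B differed by -0.39 ± 0.27 (adjusted p = 0.338). In hypoxia clone B stood above parental cells (1.16 ± 0.27, adjusted p = 0.00150), and clone A did not pass (-0.53 ± 0.28, adjusted p = 0.128, but -0.98 with adjusted p = 0.00712 without clone A hypoxia replicate 1).

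GREM1 (chromosome 15, 32717974 to 32745107, plus strand) encodes gremlin 1, a secreted protein that binds BMPs and keeps them from their receptors. Clone B held 9.62, 8.06 and 8.88 CPM in hypoxia, against 3.32, 2.43 and 3.77 CPM in normoxia (1.48 ± 0.35, adjusted p = 0.00905). In clone A it stood at 4.22, 6.02 and 10.7 CPM in hypoxia, against 5.01, 2.85 and 2.32 CPM in normoxia (1.05 ± 0.35, adjusted p = 0.0335). Parental libraries held 2.76, 2.66 and 4.50 CPM in hypoxia, against 7.06, 5.40 and 4.14 CPM in normoxia (-0.75 ± 0.35, adjusted p = 0.111, but 0.0114 with only the libraries compared). Groups were apart in clone B and overlapped in clone A and in parental cells, all at low levels. The clone A rise was lost without clone A hypoxia replicate 3 or clone A normoxia replicate 2 or 3 (adjusted p up to 0.277), and the clone B rise without clone B normoxia replicate 2 (adjusted p = 0.0622). The clone A rise was also lost with no filter on low counts (adjusted p = 0.0504) and with only the libraries compared (0.0520).

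TGFB2 (chromosome 1, 218346235 to 218444619, plus strand) encodes a second TGF-beta ligand, and 26.6% of the length of its exons overlaps TGFB2-OT1 on the same strand. Hypoxia raised it slightly in both clones: clone B held 88.4, 88.8 and 88.2 CPM in hypoxia, against 61.2, 60.6 and 64.9 CPM in normoxia (0.51 ± 0.11, adjusted p = 0.00504). Clone A held 51.7, 56.0 and 53.5 CPM in hypoxia, against 42.1, 40.8 and 40.8 CPM in normoxia (0.38 ± 0.11, adjusted p = 0.0154). The groups were apart in each clone, but clone A's call was lost without clone A hypoxia replicate 2 or clone A normoxia replicate 2 or 3 (adjusted p up to 0.0535). Parental libraries overlapped (0.04 ± 0.11, adjusted p = 0.832), and neither clone's response passed against the parental one, at 0.47 ± 0.16 in clone B (adjusted p = 0.0899) and 0.35 ± 0.16 in clone A (adjusted p = 0.213).

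SMAD7 (chromosome 18, 48919853 to 48952052, minus strand) rose in hypoxia in clone A by 0.65 ± 0.19 (adjusted p = 0.0145), with 45.2, 31.4 and 36.0 CPM in hypoxia, against 24.3, 22.8 and 24.9 CPM in normoxia. That call was lost without clone A hypoxia replicate 1 or clone A normoxia replicate 2 (adjusted p up to 0.105). Clone B (0.42 ± 0.18, adjusted p = 0.157) and parental cells (0.46 ± 0.19, adjusted p = 0.0620) gave similar values that did not pass, with groups apart in both. Both values passed with only the libraries compared (adjusted p = 0.00142 in clone B and 0.000514 in parental cells). TGFBR2 (chromosome 3, 30606502 to 30694142, plus strand) fell in hypoxia in clone A by 0.39 on the log2 scale (SE 0.10, adjusted p = 0.00813, and 0.0604 without clone A hypoxia replicate 1), with 34.1, 39.2 and 42.0 CPM in hypoxia, against 49.9, 50.6 and 50.2 CPM in normoxia. TGFBR2 groups were apart in clone B too, at -0.28 ± 0.10 (adjusted p = 0.0871, but 0.0322 with only the libraries compared). Parental groups were apart as well, at -0.14 ± 0.10 (adjusted p = 0.331). The TGFBR2 response of clone A was not called as different from the parental one (-0.25 ± 0.14, adjusted p = 0.358). KLF10 (chromosome 8, 102648779 to 102655902, minus strand) passed in no genotype for hypoxia in the fit of all libraries. It was slightly lower and passed with only the libraries compared in clone A (-0.30, adjusted p = 0.0189) and parental cells (-0.18, 0.0242), with groups apart in both.

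Across the 10 genes, the hypoxia response of clone B differed from the parental one for 2 genes (GREM1 and TBX2, both higher; background 4.73%, 1.49% higher) and that of clone A for 4 (GREM1 and TBX2 higher, TGFB1 and ID3 lower; background 6.23%). GREM1 differed by 2.22 ± 0.50 in clone B (adjusted p = 0.00722) and 1.80 ± 0.50 in clone A (adjusted p = 0.0279). TBX2 differed by 1.55 ± 0.39 in clone B (adjusted p = 0.0164) and 2.22 ± 0.41 in clone A (adjusted p = 0.00103). GREM1 in clone A did not pass without 1 of these 6 libraries (clone A hypoxia replicate 3, clone A normoxia replicates 2 and 3, parental hypoxia replicates 1 and 2 and parental normoxia replicate 1, adjusted p up to 0.133). For TBX2 in clone B it was lost without clone B hypoxia replicate 3 or parental hypoxia replicate 3 (adjusted p up to 0.0509). The clone A count of 4 was 1 or 2 without any 1 of 10 of the 12 libraries, all but clone A hypoxia replicate 1 and parental normoxia replicate 2, and the clone B count of 2 was 1 without clone B hypoxia replicate 3 or parental hypoxia replicate 3. Both comparisons share the parental libraries.

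TIFM under hypoxia raised KLF10 in every genotype, and it moved TGFB2 and ID3 in clone B and parental cells one way and in clone A the other. Called members numbered 5 of 10 in clone B (2 higher and 3 lower; background 53.7%), 8 in clone A (5 higher and 3 lower; background 67.2%) and 3 in parental cells (2 higher and 1 lower; background 42.2%). Those shares are near the backgrounds in these comparisons, in which a large part of all tested genes passed. The summed levels of the epithelial and of the mesenchymal markers were both lower with TIFM. Medians over all libraries were highest for KRT8, KRT18 and KRT19 (1516, 919 and 552 CPM) and for VIM (4312 CPM), so the sums mostly follow these genes. CDH1 (1.13 to 61.5 CPM) cannot be read from the epithelial sum. The summed epithelial levels were 868 to 1612 CPM in clone B in hypoxic TIFM against 6660.0 to 8692 CPM in hypoxia, 785 to 1782 CPM in clone A in hypoxic TIFM against 2215 to 3186 CPM in hypoxia, and 2556 to 3219.7 CPM in parental cells in hypoxic TIFM against 7005 to 7672 CPM in hypoxia. The 4 mesenchymal markers VIM, ZEB1, FN1 and CDH2 summed to 2224 to 2404 CPM in clone B in hypoxic TIFM against 4841 to 4988 CPM in hypoxia, 2385 to 3105 CPM in clone A in hypoxic TIFM against 4258 to 5573 CPM in hypoxia, and 2994 to 4119.8 CPM in parental cells in hypoxic TIFM against 4559.9 to 4696 CPM in hypoxia. The part of either list in the results for TIFM was not tested.

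KLF10 in clone B held 581, 441 and 376 CPM in hypoxic TIFM, against 106, 76.5 and 74.1 CPM in hypoxia (log2 2.45 ± 0.17, 5.45-fold, adjusted p = 1.56e-11). In clone A it held 862, 972 and 695 CPM in hypoxic TIFM, against 56.6, 71.9 and 68.4 CPM in hypoxia (3.68 ± 0.18, 12.8-fold, adjusted p = 6.03e-15). Parental libraries held 203, 229 and 143 CPM in hypoxic TIFM, against 116, 111 and 111 CPM in hypoxia (0.77 ± 0.16, 1.70-fold, adjusted p = 0.000423). All 3 genotypes had groups that were apart. KLF10 rose more in the clones than in parental cells, by 1.68 ± 0.23 in clone B (adjusted p = 3.44e-05) and 2.92 ± 0.23 in clone A (adjusted p = 1.42e-09). Against parental cells in hypoxic TIFM it stood higher by 1.28 ± 0.16 in clone B (adjusted p = 3.79e-07) and 2.14 ± 0.17 in clone A (adjusted p = 4.20e-11). The order was turned round in regular medium, where KLF10 was lower than in parental cells in clone A in hypoxia (-0.78 ± 0.16) and in normoxia (-0.63 ± 0.16), and in clone B in normoxia (-0.58 ± 0.16, adjusted p = 0.00732). KLF10 in clone B in hypoxia, with groups apart, did not pass in the fit of all libraries (-0.40 ± 0.16, adjusted p = 0.0539, but 0.0104 without clone B hypoxia replicate 1). It passed with DESeq2 size factors in edgeR (adjusted p = 0.0493), the replicate block (0.0310), DESeq2 (0.0427) and only the libraries compared (0.0193).

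TGFB2 in clone B held 189, 199 and 228 CPM in hypoxic TIFM, against 88.4, 88.8 and 88.2 CPM in hypoxia (1.22 ± 0.11, adjusted p = 2.06e-09). Clone A fell, with 45.8, 34.3 and 45.7 CPM in hypoxic TIFM, against 51.7, 56.0 and 53.5 CPM in hypoxia (-0.36 ± 0.11, adjusted p = 0.00672, 0.0697 without clone A hypoxic TIFM replicate 2 and 0.126 with only the libraries compared). Parental libraries held 209.8, 157 and 209 CPM in hypoxic TIFM, against 107, 109 and 101 CPM in hypoxia (0.86 ± 0.11, adjusted p = 1.08e-06). The groups were apart in all 3 genotypes. The TIFM response of TGFB2 differed from the parental one by -1.21 ± 0.16 in clone A (adjusted p = 1.98e-06) and by 0.36 ± 0.16 in clone B (adjusted p = 0.143).

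ID3 held 38.3, 38.6 and 32.3 CPM in clone B in hypoxic TIFM, against 109.7, 67.2 and 63.3 CPM in hypoxia (-1.14 ± 0.21, adjusted p = 5.38e-05). Clone A rose, with 44.4, 71.0 and 82.1 CPM in hypoxic TIFM, against 35.8, 38.2 and 38.5 CPM in hypoxia (0.81 ± 0.21, adjusted p = 0.00123). In parental cells it held 19.1, 31.4 and 18.8 CPM in hypoxic TIFM, against 42.4, 53.7 and 50.9 CPM in hypoxia (-1.09 ± 0.21, adjusted p = 0.000172). None of these pairs of groups overlapped. The clone A response differed from the parental one by 1.90 ± 0.29 (adjusted p = 1.84e-05) and the clone B response by -0.05 ± 0.29 (adjusted p = 0.938).

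ID1 and SMAD7 also rose with TIFM in clone A. ID1 held 231, 336 and 298 CPM in clone A in hypoxic TIFM, against 96.9, 109 and 111 CPM in hypoxia (1.45 ± 0.19, adjusted p = 2.06e-07). SMAD7 held 61.0, 72.1 and 115 CPM in clone A in hypoxic TIFM, against 45.2, 31.4 and 36.0 CPM in hypoxia (1.13 ± 0.19, adjusted p = 7.32e-06). Both were apart, and both responses differed from the parental one, ID1 by 1.81 ± 0.26 (adjusted p = 7.56e-06) and SMAD7 by 1.09 ± 0.26 (adjusted p = 0.00177). In clone B neither ID1 (-0.15 ± 0.18) nor SMAD7 (0.07 ± 0.18) passed, nor did they in parental cells (-0.36 ± 0.18 and 0.04 ± 0.18). Parental ID1 passed once parental hypoxic TIFM replicate 2, its high library, was left out (adjusted p = 0.00311).

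The other TIFM calls were for TBX2, GREM1, TGFBR2 and TGFB1. TBX2 fell by 1.13 on the log2 scale in clone B (SE 0.27, adjusted p = 0.00118), with 9.85, 11.9 and 26.4 CPM in hypoxic TIFM, against 34.6, 29.2 and 41.1 CPM in hypoxia. In clone A, where the groups overlapped, it fell by 0.93 (SE 0.29, adjusted p = 0.00744, lost without clone A hypoxia replicate 1 or clone A hypoxic TIFM replicate 1, adjusted p up to 0.147). In parental cells, with groups apart, the TBX2 difference was -0.64 ± 0.28 (adjusted p = 0.0648, but 0.00443 with only the libraries compared). The TBX2 response did not pass against the parental one in clone B (-0.48 ± 0.39, adjusted p = 0.466, but 0.0417 without clone B hypoxic TIFM replicate 3) or clone A (-0.28 ± 0.40, adjusted p = 0.613). GREM1 fell in clone B by 1.65 (SE 0.36, adjusted p = 0.000408), with 3.49, 3.41 and 1.51 CPM in hypoxic TIFM, against 9.62, 8.06 and 8.88 CPM in hypoxia. Its TIFM response differed from the parental one by -2.41 ± 0.50 in clone B (adjusted p = 0.00300) and -1.46 ± 0.50 in clone A (adjusted p = 0.0230, lost without clone A hypoxia replicate 3, clone A hypoxic TIFM replicate 2, parental hypoxia replicate 1 or 2, or parental hypoxic TIFM replicate 1, adjusted p up to 0.114, and 0.0528 with only the libraries compared). TGFBR2 fell in clone A by 0.36 (SE 0.10, adjusted p = 0.00309), and that response differed from the parental one by -0.48 ± 0.14 (adjusted p = 0.00997). With only the libraries compared neither TGFBR2 value passed (adjusted p = 0.101 for the fall and 0.0740 for the difference). TGFB1 rose in clone A by 0.53 ± 0.20 (adjusted p = 0.0249), with 25.0, 42.9 and 64.3 CPM in hypoxic TIFM, against 34.1, 28.3 and 28.9 CPM in hypoxia. These TGFB1 groups overlapped, and the call was lost without clone A hypoxia replicate 2 or 3 or clone A hypoxic TIFM replicate 3 (adjusted p up to 0.413), or with only the libraries compared (0.159). In all, 2 members differed from the parental TIFM response in clone B (1 higher and 1 lower; background 10.4%) and 7 in clone A (4 higher and 3 lower; background 38.9%).

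**Figure D3:**
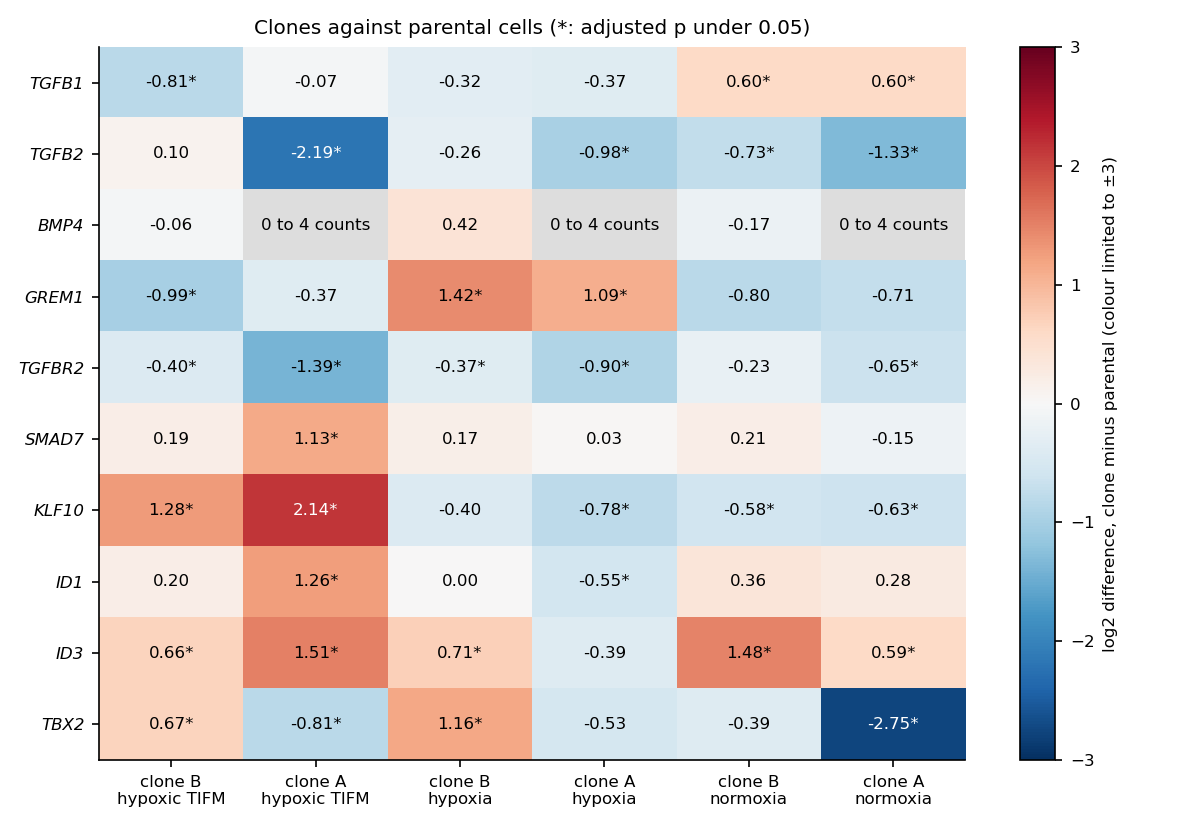
Log2 difference of clone B or clone A from parental cells (colour, limited to ±3, with the value in each cell) for the 10 genes (rows) in hypoxic TIFM, hypoxia and normoxia (columns). An asterisk marks an adjusted p under 0.05 in edgeR, and BMP4 in clone A is left grey because its groups held 0 to 4 counts; TGFB2 and TGFBR2 are negative in clone A in all 3 conditions.

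Between genotypes within a condition, the ligand TGFB2, the receptor TGFBR2 and BMP4 were lower in clone A than in parental cells in all 3 conditions. In normoxia 4 of 10 members differed from parental cells in clone B (2 higher and 2 lower; background 26.5%) and 7 in clone A (2 higher and 5 lower; background 31.6%). In hypoxia 4 differed in clone B (3 higher and 1 lower; background 35.9%) and 6 in clone A (1 higher and 5 lower; background 41.4%). In hypoxic TIFM 6 differed in clone B (3 higher and 3 lower; background 47.5%) and 8 in clone A (4 higher and 4 lower; background 61.7%). Counts for clone A include BMP4, and the clone B count in hypoxic TIFM was 3 without parental hypoxic TIFM replicate 1. The summed epithelial markers were lower in clone A as well, at 785 to 1782 CPM against 2556 to 3219.7 CPM in parental cells in hypoxic TIFM, 2215 to 3186 CPM against 7005 to 7672 CPM in hypoxia, and 2145 to 2399 CPM against 6318 to 8729.6 CPM in normoxia. Clone B held 868 to 1612, 6660.0 to 8692 and 5789 to 6337 CPM of them in the same order of conditions, and their part in these differences was not tested.

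TGFBR2 in normoxia held 67.5, 67.1 and 66.9 CPM in clone B and 49.9, 50.6 and 50.2 CPM in clone A, against 79.0, 82.0 and 76.1 CPM in parental cells. The 3 genotypes did not overlap, and the log2 difference from parental cells was -0.23 ± 0.10 in clone B (adjusted p = 0.0916) and -0.65 ± 0.10 in clone A (adjusted p = 1.41e-05). Clone A was lower by -0.90 ± 0.10 in hypoxia and -1.39 ± 0.10 in hypoxic TIFM (adjusted p = 7.58e-08 and 2.52e-11), where it held 29.8, 27.8 and 31.9 CPM, against 86.0, 76.7 and 71.3 CPM in parental cells. Clone B was lower by -0.37 ± 0.10 in hypoxia (adjusted p = 0.00492) and -0.40 ± 0.10 in hypoxic TIFM (adjusted p = 0.00230).

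TGFB2 was lower in clone A by -1.33 ± 0.11 in normoxia, -0.98 ± 0.11 in hypoxia and -2.19 ± 0.12 in hypoxic TIFM (adjusted p = 5.88e-10, 8.17e-08 and 3.19e-14). In clone B it was lower in normoxia (-0.73 ± 0.11, adjusted p = 1.11e-05) and did not pass in hypoxic TIFM (0.10 ± 0.11, adjusted p = 0.484). In hypoxia the clone B and parental groups were apart, but TGFB2 did not pass (-0.26 ± 0.11, adjusted p = 0.0667, but 0.00181 with only the libraries compared). Other differences of clone B from parental cells in hypoxia included higher ID3 (0.71 ± 0.20, adjusted p = 0.00793, and 0.127 without clone B hypoxia replicate 1) and higher GREM1 (1.42 ± 0.35, adjusted p = 0.00217). In clone A in hypoxia ID1 was lower (-0.55 ± 0.18, adjusted p = 0.0181, lost without clone A hypoxia replicate 1 or parental hypoxia replicate 2, adjusted p up to 0.0674) and GREM1 higher (1.09 ± 0.35, adjusted p = 0.0148, lost without clone A hypoxia replicate 3 or parental hypoxia replicate 1 or 2, adjusted p up to 0.189). In hypoxic TIFM clone B held less TGFB1 (-0.81 ± 0.21, adjusted p = 0.00218), with 20.0, 28.2 and 31.2 CPM, against 42.9, 50.3 and 45.6 CPM in parental cells. Clone B there held less GREM1 (-0.99 ± 0.36, adjusted p = 0.0279, lost without clone B hypoxic TIFM replicate 3 or parental hypoxic TIFM replicate 1, adjusted p up to 0.214, and 0.0528 with only the libraries compared) and more ID3 (0.66 ± 0.21, adjusted p = 0.0114, lost without parental hypoxic TIFM replicate 1 or 3, adjusted p up to 0.0657), and clone A held more ID3 (1.51 ± 0.21), ID1 (1.26 ± 0.19) and SMAD7 (1.13 ± 0.19) than parental cells. TBX2 in hypoxic TIFM was higher in clone B (0.67 ± 0.28, adjusted p = 0.0497, lost without clone B hypoxic TIFM replicate 3 or any parental hypoxic TIFM library, adjusted p up to 0.725, and with no filter on low counts, 0.0628, the replicate block, 0.0582, or only the libraries compared, 0.123) and lower in clone A (-0.81 ± 0.29, adjusted p = 0.0191, lost without clone A hypoxic TIFM replicate 1 or 2 or parental hypoxic TIFM replicate 3, adjusted p up to 0.109).

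BMP4 (chromosome 14, 53949736 to 53958761, minus strand) was close to the limit of these libraries. Over the 3 libraries of each group it had 33, 34 and 24 counts in clone B and 4, 3 and 0 counts in clone A in hypoxic TIFM, hypoxia and normoxia, against 35, 28 and 25 counts in parental cells. Leaving out clone A hypoxia replicate 3 ended edgeR's call for clone A in hypoxia (adjusted p = 0.0501). In clone A the 4 counts of hypoxic TIFM all came from replicate 2. In normoxia BMP4 was 8.09-fold lower in clone A than in parental cells if 3 counts over the group are taken as the floor. That value leaves out the counting error of the parental counts. The ratio of clone A to parental cells was 0.136 (0.0352 to 0.381) in hypoxic TIFM, 0.128 (0.0249 to 0.415) in hypoxia and 0 (0 to 0.164) in normoxia. These are exact 95% intervals that cover counting error only. Clone B gave ratios of 0.947 (0.570 to 1.57) in hypoxic TIFM, 1.35 (0.793 to 2.31) in hypoxia and 0.882 (0.482 to 1.61) in normoxia, intervals that all included 1.

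Both clones were also set against each other directly. Clone B stood above clone A for 5 of 10 members in normoxia (background 21.5%, 11.7% higher) and 6 in hypoxia (background 25.1%, 12.9% higher), with none below. In hypoxic TIFM 9 members differed, 4 higher and 5 lower (background 56.1%). TBX2, TGFB2, TGFBR2, ID3 and BMP4 were the 5 higher in clone B in normoxia, and ID1 joined them in hypoxia (0.55 ± 0.18, adjusted p = 0.0296, lost without any clone A hypoxia library or clone B hypoxia replicate 1, adjusted p up to 0.281). In hypoxic TIFM KLF10 (-0.85 ± 0.16), SMAD7 (-0.93 ± 0.19), ID1 (-1.05 ± 0.18), ID3 (-0.85 ± 0.21) and TGFB1 (-0.73 ± 0.21) were lower in clone B. The 4 higher in clone B were TGFB2 (2.29 ± 0.12, with means of 206 CPM in clone B and 41.9 CPM in clone A, adjusted p = 9.06e-14), TBX2 (1.49 ± 0.29), TGFBR2 (0.99 ± 0.10) and BMP4, whose counts are given above. The TGFB1 value lost its call without clone A hypoxic TIFM replicate 3 (adjusted p = 0.123) and with only the libraries compared (0.136).

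Beyond the 10 genes, 71 of 90 other listed pathway genes were tested. With hypoxia 10 of these rose and 4 fell in clone B (19.7% called, against 9.30% of all tested genes), 10 rose and 9 fell in clone A (26.8%, against 22.2%), and 23 rose and 4 fell in parental cells (38.0%, against 30.2%). The hypoxia responses of 8 differed from the parental one in clone B, all lower (11.3%, against 4.73% of all tested genes in either direction), and of 11 in clone A, 10 lower and 1 higher (15.5%, against 6.23%). Named by smallest adjusted p, the rises in parental hypoxia were PDGFB, a platelet-derived growth factor chain (2.24 ± 0.15, with 215 CPM in hypoxia and 45.6 CPM in normoxia), HEY1, a Notch and BMP responsive repressor (2.32 ± 0.20), ID2 (2.47 ± 0.28) and TGFBI, a TGF-beta induced matrix protein (0.82 ± 0.09). PDGFB responded less in the clones, by -2.15 ± 0.20 in clone B and -2.74 ± 0.20 in clone A, and so did HEY1 (-1.72 ± 0.27 and -2.03 ± 0.28 in the same order) and PMEPA1, a brake on TGF-beta signalling (-1.50 ± 0.24 and -1.85 ± 0.24).

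By role, TGF-beta responders, members included, were called higher in 4 and lower in 1 of 18 tested genes in clone B hypoxia, 2 and 5 in clone A hypoxia, and 8 and 1 in parental hypoxia. The shares called were 27.8% in clone B, 38.9% in clone A and 50% in parental cells, against 9.30%, 22.2% and 30.2% of all tested genes. BMP responders were higher in 4 of 14 and lower in 1 in each clone, and higher in 6 and lower in none in parental cells, so that 35.7% were called in each clone and 42.9% in parental cells, against the same backgrounds. With TIFM, BMP responders were higher in 0 and lower in 3 in clone B, higher in 8 and lower in 3 in clone A, and higher in 2 and lower in 4 in parental cells. That is 21.4% called in clone B, 78.6% in clone A and 42.9% in parental cells, against 53.7%, 67.2% and 42.2% of all tested genes. The median log2 differences of the BMP responders with TIFM were -0.20 in clone B, 0.75 in clone A and -0.40 in parental cells, against -0.03, -0.03 and 0.00 over all tested genes. TGF-beta responders with TIFM were higher in 6 and lower in 7 of 18 in clone B, 10 and 5 in clone A, and 9 and 3 in parental cells. Their shares called were 72.2%, 83.3% and 66.7% and their medians 0.04, 0.76 and 0.37 in the same order. SMAD7 is in both lists, and the BMP list also holds the members ID1, ID3 and TBX2. SMAD4, the common SMAD, was present in all groups and rose with TIFM by 0.98 ± 0.11 in clone B, 0.74 ± 0.11 in clone A and 0.65 ± 0.11 in parental cells.

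**Figure D4:**
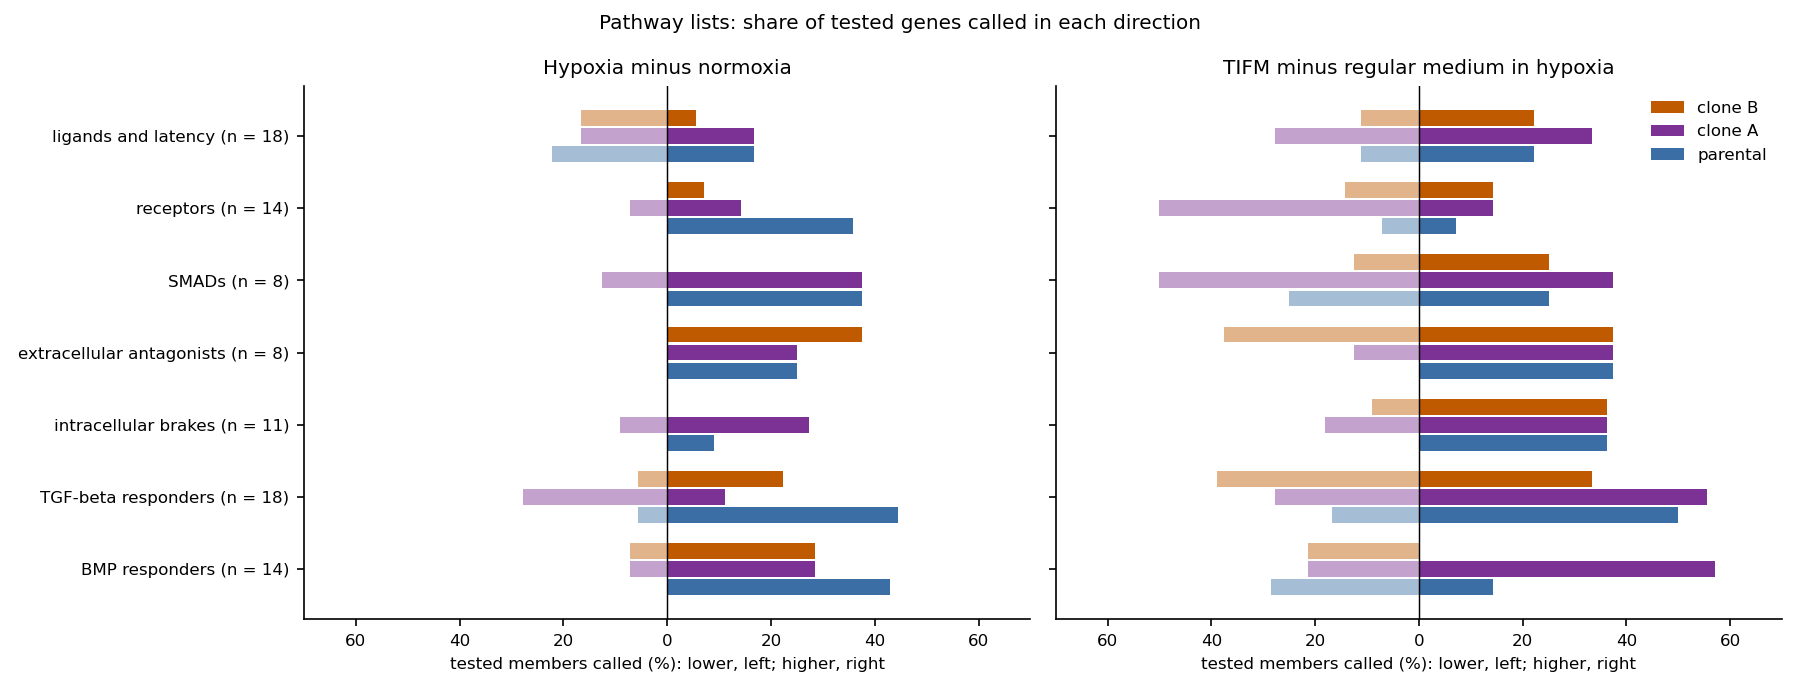
Share of the tested genes of each pathway list (y axis, with the number tested) that were called higher (right) or lower (left) at an adjusted p under 0.05, as a percentage (x axis), for hypoxia minus normoxia (left panel) and TIFM minus regular medium in hypoxia (right panel). Bars are clone B, clone A and parental cells; among TGF-beta responders in hypoxia, clone B has 4 of 18 higher, clone A 2 and parental cells 8.

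Among all tested genes with at least 1 CPM in some group, those whose 9 group means followed each member most closely were found by Pearson's r of log2 levels, as a description of 9 points that share libraries and depth. The closest to GREM1 was MFAP5 (r = 0.988), to KLF10 DDX31 (0.983), to TGFBR2 TRAPPC2 (0.982), to TGFB2 DNAH1 (0.977) and to SMAD7 ZNF668 (0.976). For BMP4 it was SDCBP (0.969), for ID1 CTNNB1 (0.948), for ID3 CBX8 (0.948), for TGFB1 LRRC56 (0.941) and for TBX2 GPRC5B (0.907). Among the members themselves, SMAD7 and ID1 gave r = 0.92 and TGFB2 and BMP4 r = 0.90, while TGFBR2 and SMAD7 gave r = -0.63 over the 9 groups.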

How the data were processed

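The authors deposited raw read counts per gene for 27 libraries of polyA RNA in 1 table of 21487 genes. Per the submitters' processing notes, HISAT2, featureCounts and GRCh38 were used; no source used here gives versions, annotation or strand setting. Symbols came from GENCODE v29 for 21409 genes, whose coordinates and exon overlaps are given. The counts were fitted with edgeR 4.0.16 in R 4.3.3: filterByExpr (minimum count 10, total 15), TMM, 1 coefficient per group and robust quasi-likelihood F tests, with Benjamini-Hochberg adjustment over 13943 genes in each of 19 contrasts. An SE is the absolute log2 difference divided by the square root of F. Levels are CPM on TMM-scaled libraries. The step was tested on simulated data. Libraries held 26057022 to 38341713 counts, so a gene at 0 counts has the limit given beside it, for counting error only. Alternatives were other size factors, no filter, DESeq2 1.42.0, only the libraries compared, a replicate block and leaving out each library. Members and lists were chosen with earlier results of these data known. Named are all 10 members, up to 4 other pathway genes per comparison by smallest adjusted p, SMAD4 and the closest gene in pattern to each member; another gene the rule names is not reported here.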

Additional observations from a re-analysis of the deposited data

Results flagged for a closer look

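Several responses differed between genotypes by a direct edgeR test of the difference. All clone comparisons share the parental libraries, and no explanation was tested. The hypoxia and TIFM responses of a genotype also share its hypoxia libraries, with opposite sign. A high or low level in those libraries moves both responses in opposite directions, so they are not separate results. For the hypoxia response, clone B minus parental was 2.22 for GREM1 and 1.55 for TBX2, and clone A minus parental was 1.80 for GREM1, 2.22 for TBX2, -0.97 for TGFB1 and -0.98 for ID3, on the log2 scale. For the TIFM response under hypoxia, clone B minus parental was 1.68 for KLF10 and -2.41 for GREM1. Clone A minus parental was 2.92 for KLF10, 1.81 for ID1, 1.90 for ID3, 1.09 for SMAD7, -1.21 for TGFB2, -1.46 for GREM1 and -0.48 for TGFBR2. With 3 libraries a group, no test for an outlying library was run; calls that rest on 1 library are named beside their values. With only the libraries compared, the GREM1 and TGFBR2 differences in the TIFM response of clone A did not pass (adjusted p = 0.0528 and 0.0740).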

How the results depend on the processing

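No member changed direction while called under any alternative run. Fitting only the libraries compared moved the most counts of members called: to 6 for hypoxia in clone B (3 in the fit of all libraries) and in parental cells (3), 5 for TIFM in clone A (8), 9 and 7 for clone B against parental in normoxia and hypoxia (4 and 4), and 5 for the difference of the clone B hypoxia response from the parental one (2). Leaving out 1 library gave 2 to 5 members for hypoxia in clone A (5), 2 to 4 for hypoxia in clone B (3), 1 to 3 for the difference from the parental hypoxia response in clone A (4) or clone B (2), and 3 to 6 for clone B against parental in hypoxic TIFM (6, and 3 without parental hypoxic TIFM replicate 1). Over 180 member results, fitting only the libraries compared ended 9 calls and gained 27; the 9 lost ones, among them TGFBR2 with TIFM in clone A (adjusted p = 0.101) and its difference from the parental response (0.0740), are named beside their values. DESeq2 ended none and gained 5 of 190, and testing with no filter ended 2. Fitting only the libraries compared moved the calls over all genes by over 1.5 times for hypoxia in clone B (4242, against 1297 in the fit of all libraries), clone A (4860, against 3097) and parental cells (6804, against 4212), clone B against parental in normoxia (5710, against 3697), clone A against parental in hypoxic TIFM (5402, against 8597), clone B against clone A in normoxia (6834, against 3002) and in hypoxic TIFM (3802, against 7823), and the differences from the parental response to hypoxia in clone A (2656, against 869) and clone B (2592, against 660) and to TIFM in clone A (3539, against 5426). Same-numbered libraries of different groups deviated together with a median correlation of -0.008 (up to 0.607), over 0.1 in 31 of 108 pairs. Pairs with different numbers had a median of -0.002 (up to 0.569), over 0.1 in 53 of 216 pairs. These medians pool all conditions, so they cannot show whether replicate numbers pair the samples within 1 condition, such as hypoxic TIFM. That was not tested. With the replicate block the calls for SMAD7 in parental hypoxia (adjusted p = 0.0446), KLF10 in clone B against parental in hypoxia (0.0310) and the ID1 hypoxia response of clone A (0.0439) were gained, and TBX2 in clone B against parental in hypoxic TIFM (0.0582) was lost. With the replicate block 4308 genes were called for hypoxia in parental cells. With DESeq2 size factors in edgeR the TGFB1 hypoxia response of clone A had adjusted p = 0.0532. BMP4 rests on 0 to 18 counts a library, and depth limits any statement on it.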
